A study of Mus musculus with 9 samples.

Results

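The miR-17/92 polycistron is a single primary transcript that is cut into several microRNAs (miRNAs), short RNAs that lower the output of messenger RNAs pairing with them. It was followed here through 7 mature miRNAs, chosen by name out of 1129 rows of a small RNA read-count table: mmu-miR-17-5p, mmu-miR-17-3p, mmu-miR-18a-5p, mmu-miR-19a-3p, mmu-miR-20a-5p, mmu-miR-19b-3p and mmu-miR-92a-3p, named below without the mouse prefix. All 7 passed the filter on low counts, which kept 447 rows for testing. The 9 libraries were made from the back skin of female adult mice (C57BL/6, 6 months old), wounded under pentobarbital with a punch 8 mm wide. They form 3 groups of 3. The first group is skin taken out by the punch (day 0) and the second is the edge of the wound at day 7. The third is skin of a diabetic mouse model, whose titles carry T7, whose table columns carry T0 and whose treatment text describes skin taken at wounding. The day of the diabetic group is therefore unsettled, and the model and the time of collection cannot be told apart in it. How diabetes was induced is not stated in the labels. The labels speak of 9 mice but do not tie libraries to animals, so a p-value here reflects only the spread between libraries, which may be technical. In a bulk sample, more cells of a type and more RNA per cell cannot be told apart.

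The transcript folds into 6 hairpins, each trimmed by Drosha and Dicer to a duplex of a 5p and a 3p arm, of which usually a single arm is kept by Argonaute. A miRNA finds its targets mainly through its seed, bases 2 to 8. The cluster, also known as oncomir-1, is switched on by the growth regulators MYC and E2F, and it favours proliferation and survival by repressing genes such as Bcl2l11 and Cdkn1a. In skin, miR-19 and miR-20a have been tied to the inflammatory response of keratinocytes during repair, and miR-92a restrains the growth of blood vessels.

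The mature sequences are shown because the seed divides the members into groups that can be read side by side, and because near-identical members limit what a read can be assigned to. They are RefSeq entries of build GRCm38.p6 and are written 5′ to 3′ with the seed in capitals. All 7 members had such an entry.
miR-17-5p: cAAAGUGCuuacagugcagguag
miR-20a-5p: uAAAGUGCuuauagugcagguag
miR-18a-5p: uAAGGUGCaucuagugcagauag
miR-19a-3p: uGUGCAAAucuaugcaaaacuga
miR-19b-3p: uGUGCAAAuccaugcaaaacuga
miR-92a-3p: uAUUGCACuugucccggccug
miR-17-3p: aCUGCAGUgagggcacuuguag

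miR-17-5p and miR-20a-5p share a seed, as do miR-19a-3p and miR-19b-3p. Counting from 1 at the 5′ end, miR-20a-5p differs from miR-17-5p by C1U and C12U, and miR-19b-3p differs from miR-19a-3p by U11C alone. miR-18a-5p differs from miR-20a-5p at 4 positions, of which 1 is in the seed (A4G). The 6 hairpins lie in 836 bases of mouse chromosome 14, at chr14:115043671-115044506 on the plus strand of GRCm38.p6, with 35 to 96 bases between neighbours. In the GENCODE M21 annotation all 6 are within an exon of the host long noncoding RNA Mir17hg. In transcript order they are Mir17, Mir18, Mir19a, Mir20a, Mir19b-1 and Mir92-1. The first hairpin gives 2 of the members, and it is shown with both arms in capitals to place them.
Mir17 hairpin: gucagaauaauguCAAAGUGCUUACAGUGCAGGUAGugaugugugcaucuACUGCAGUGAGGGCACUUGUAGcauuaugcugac

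Counts of miR-19b-3p and miR-92a-3p cannot be assigned to chromosome 14 alone, since the same mature sequences are also made from Mir19b-2 and Mir92-2 of a paralogous cluster on the X chromosome. The other 5 members have 1 RefSeq locus each.

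Library totals ran from 2537167 to 5453539 counts. miR-21a-5p, a miRNA abundant in injured skin, took 18.6% to 33.2% of a library at day 0, 40.6% to 55.6% at day 7 and 13.7% to 19.4% in diabetic skin. Levels are given below as CPM, counts relative to a library size scaled by the trimmed mean of M-values (TMM), so that a typical miRNA shows no change. They are relative to other miRNAs and not absolute amounts. The 7 epithelial marker miRNAs, led by the skin-enriched miR-203-3p and miR-205-5p, were present in every library. They summed to 67999 to 81578 CPM at day 0, 57161 to 61576 at day 7 and 62174 to 88886 in diabetic skin, so that day 7 lay below both other groups. The markers went through the same edgeR test as the members, passing at an adjusted p under 0.05. All 7 had lower estimates at day 7 than at day 0, and miR-429-3p, miR-200a-3p and miR-205-5p passed. All 7 had higher estimates in diabetic skin than at day 7, and 3 passed. The 5 white blood cell markers summed to 822 to 1056 CPM at day 0, 1648 to 2178 at day 7 and 704 to 891 in diabetic skin. All 5 were higher at day 7 than at day 0, and 4 passed. The 4 red blood cell markers summed to 694 to 1351, 1624 to 2875 and 712 to 1054 CPM in the same order. All 4 were higher at day 7 than at day 0, and 2 passed. Against day 7, all 5 and all 4 were lower in diabetic skin, the same directions as miR-19a-3p below, and 4 and 3 of them passed. The 2 endothelial markers summed to 6519 to 8070, 7820 to 9520 and 5426 to 9965 CPM, and neither passed the test. The 3 striated muscle markers spread most widely, at 44138 to 62376, 50283 to 100474 and 30151 to 132102 CPM, and none passed in any comparison. Of all tested miRNAs 12.8% passed for day 7 against day 0, 0% for diabetic against day 0 and 19.9% for diabetic against day 7. A list of 2 or 3 markers without a call cannot be told from those shares. No marker of these lists was at 0 in any library. The part of these cell types in the results below was not tested.

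Together the 7 members held a small part of all reads. Their share of a library was 0.211% ± 0.00894 at day 0, 0.192% ± 0.0305 at day 7 and 0.317% ± 0.111 in diabetic skin (SD, n = 3 each). The diabetic libraries were 0.413% (95% exact binomial interval 0.407% to 0.418%), 0.342% (0.337% to 0.348%) and 0.196% (0.191% to 0.201%) for replicates 1 to 3, intervals that cover counting error only. The third diabetic library thus lay below all day 0 libraries, of which the lowest was 0.205%, while the other two lay above them. On the TMM scale its summed level of 1933 CPM was inside the day 0 range of 1758 to 2016 CPM. With miR-21a-5p left out of the totals the shares were 0.288% ± 0.0192, 0.388% ± 0.0922 and 0.383% ± 0.144, and the order of the day 0 and day 7 means turned round.

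The members fell into an abundant and a scarce set. Of all member counts, miR-20a-5p took 33.1% ± 2.65, miR-92a-3p 31.5% ± 4.11, miR-19b-3p 16.7% ± 2.50 and miR-17-5p 15.3% ± 1.13 (SD over the 9 libraries). These 4 held between 95.5% and 97.3% of the member counts of a library. miR-18a-5p followed with 1.36% ± 0.312, miR-19a-3p with 1.07% ± 0.502 and miR-17-3p with 0.938% ± 0.210. All members are 21 to 23 bases long, so levels need no length correction, but adapters join different miRNAs with different ease and the order of levels carries that bias. Within a library miR-92a-3p was above miR-19b-3p, and miR-17-5p above miR-18a-5p, in 9 of 9 libraries. The other neighbours in the order of levels were not separated: miR-20a-5p was above miR-92a-3p in 6 of 9 libraries, miR-19b-3p above miR-17-5p in 5, miR-18a-5p above miR-19a-3p in 6 and miR-19a-3p above miR-17-3p in 4. In their share of the member counts the day 0 and day 7 libraries did not overlap for miR-19a-3p. It took 0.815% ± 0.320 at day 0, 1.65% ± 0.375 at day 7 and 0.746% ± 0.0778 in diabetic skin (SD, n = 3 each). How often such shares separate for miRNAs at large was not computed.

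**Figure D1:**
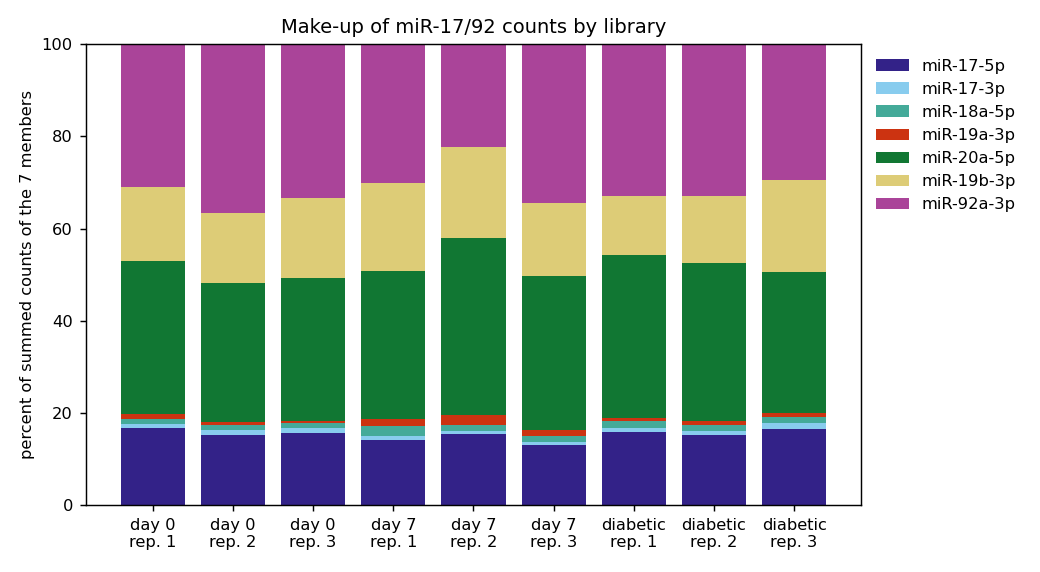
Stacked bars give each member as a percent of the summed counts of the 7 members (vertical axis) in each of the 9 libraries (horizontal axis). miR-20a-5p, miR-92a-3p, miR-19b-3p and miR-17-5p fill at least 95.5% of every bar, and the thin band of miR-19a-3p is widest in the day 7 libraries.

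The first comparison asked how the members of the polycistron in wound-edge skin of day 7 compare with those in skin at wounding. The member that passed the test was miR-19a-3p, which shares its seed with miR-19b-3p. miR-19a-3p is known as an oncogenic component of the cluster in mouse lymphoma. It stood at 20.7, 14.0 and 11.2 CPM in day 0 replicates 1, 2 and 3, and at 37.1, 61.9 and 28.9 CPM in day 7 replicates 1, 2 and 3. The lowest day 7 library was above the highest day 0 library. miR-19a-3p rose 2.78-fold (1.48 ± 0.34 in log2, SE, n = 3 against 3, edgeR adjusted p = 0.0178), with a 95% interval of 1.66-fold to 4.66-fold. It was the 1 member called of 7, where 12.8% of all tested miRNAs were called, 8.05% as higher and 4.70% as lower. The counts behind it were low, from 33 to 83 at day 0 and from 60 to 185 at day 7.

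That call depended on single libraries. It was lost without day 0 replicate 2 (edgeR adjusted p = 0.0948), day 0 replicate 3 (0.0793), day 7 replicate 1 (0.0599) or day 7 replicate 2 (0.103), and with total-count scaling (0.0856), while the log2 fold change stayed between 0.90 and 1.69 in all 16 alternatives. Total-count scaling moved the median of all tested miRNAs from 0.08 to -0.46. Relative to that median miR-19a-3p was at 1.39 with TMM and 1.37 with total counts.

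miR-19b-3p, the near twin of miR-19a-3p, was at 282, 305 and 337 CPM at day 0 and at 465, 593 and 339 CPM at day 7. The groups did not overlap, by a margin of 2 CPM between day 0 replicate 3 and day 7 replicate 3. Its log2 fold change was 0.60 ± 0.20 (SE, n = 3 against 3, edgeR adjusted p = 0.0750), with an interval of 1.12-fold to 2.05-fold. It passed without day 7 replicate 3 (0.73, edgeR adjusted p = 0.0223). It was 0.31 without day 7 replicate 2 (edgeR adjusted p = 0.373) and 0.054 with total-count scaling (0.880). Relative to the median of all tested miRNAs miR-19b-3p was at 0.513 with TMM and 0.519 with total counts.

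miR-18a-5p, whose processing in human cells is known to need the RNA-binding protein HNRNPA1, was at 18.7, 23.5 and 21.0 CPM at day 0 and at 49.5, 40.5 and 24.6 CPM at day 7. These groups did not overlap either. Its log2 fold change was 0.86 ± 0.30 (SE, n = 3 against 3, edgeR adjusted p = 0.0970), and it passed without day 7 replicate 3 (1.04, edgeR adjusted p = 0.0396). It was 0.57 without day 7 replicate 1 (edgeR adjusted p = 0.379) and 0.31 with total-count scaling (0.495). Relative to the median of all tested miRNAs miR-18a-5p was at 0.778 with TMM and 0.776 with total counts.

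The most abundant member, miR-20a-5p, which shares the seed of miR-17-5p, was at 584, 606 and 601 CPM at day 0 and at 779, 1149 and 716 CPM at day 7, again without overlap. Its log2 fold change of 0.56 ± 0.23 did not pass (SE, n = 3 against 3, edgeR adjusted p = 0.143). It was 0.25 without day 7 replicate 2 (edgeR adjusted p = 0.550) and 0.019 with total-count scaling (0.969). Relative to the median of all tested miRNAs miR-20a-5p was at 0.477 with TMM and 0.484 with total counts. The 4 members with separate ranges stand against 30.4% of all tested miRNAs whose ranges were separate in this comparison, 18.3% as higher and 12.1% as lower. The same 4 had an unadjusted edgeR p under 0.05, as did 28.2% of all tested miRNAs.

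The other members overlapped between day 0 and day 7. miR-17-5p was at 294, 308 and 305 CPM at day 0 and at 343, 462 and 279 CPM at day 7, the highest and the lowest of these 6 values both being day 7 libraries. Its log2 fold change was 0.26 ± 0.21 (edgeR adjusted p = 0.452), and the interval of 0.867-fold to 1.65-fold leaves room for a rise or a small fall. miR-17-3p, the other arm of the same hairpin, was at 14.98, 20.8 and 20.3 CPM at day 0 and at 23.3, 18.4 and 16.8 CPM at day 7. miR-92a-3p was at 544, 739 and 652 CPM at day 0 and at 734, 664 and 736 CPM at day 7. The log2 fold changes of these were 0.07 and 0.14 (edgeR adjusted p = 0.855 and 0.695).

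The median log2 fold change of the 7 members was 0.56 at day 7, against 0.08 for all tested miRNAs. All 7 point estimates were above 0 with TMM scaling. With total-count scaling miR-17-5p (-0.29), miR-17-3p (-0.47) and miR-92a-3p (-0.38) were below 0. With upper-quartile scaling miR-17-3p (-0.12) and miR-92a-3p (-0.04) were also below 0. Relative to the median of all tested miRNAs, miR-17-5p was at 0.173 with TMM and 0.177 with total counts. In the same order miR-92a-3p was at 0.056 and 0.080, and miR-17-3p at -0.017 and -0.003.

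**Figure D2:**
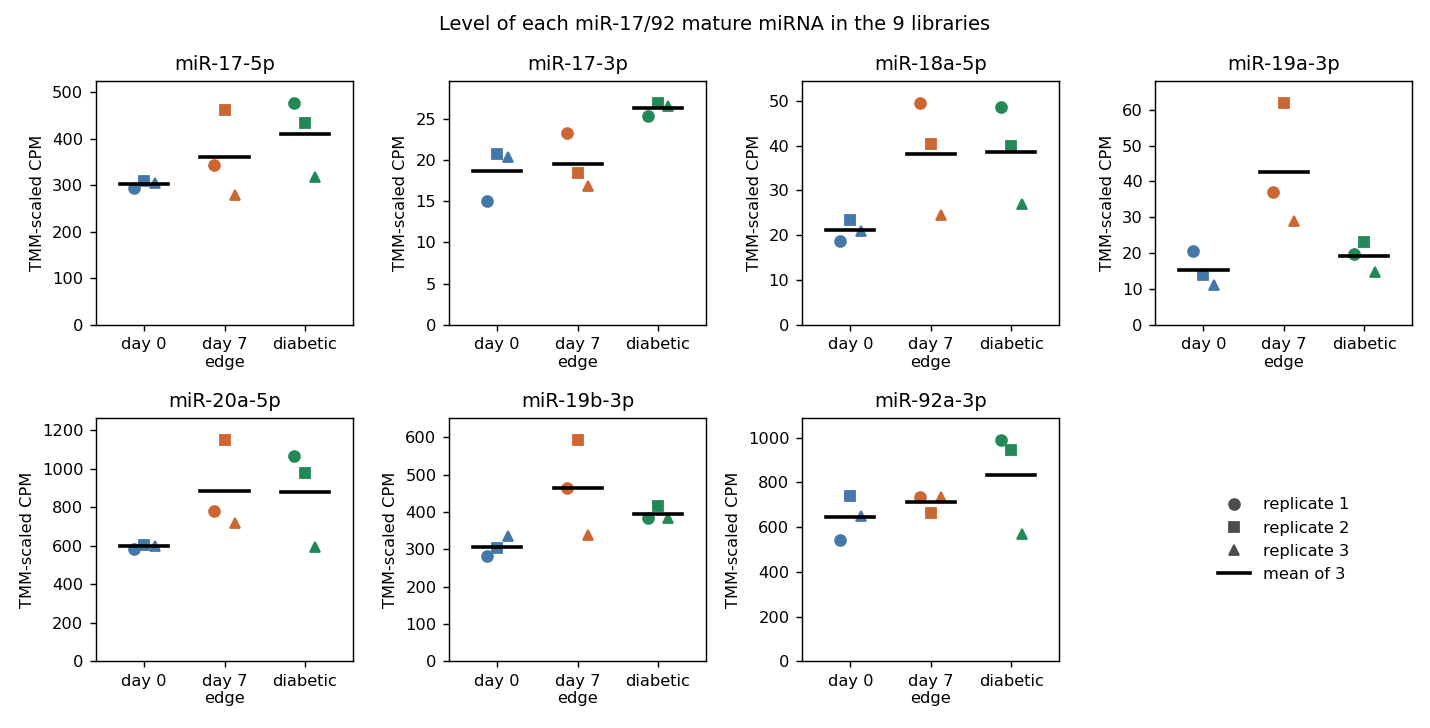
TMM-scaled CPM (vertical axes, starting at 0) of each member in the 9 libraries, by group; symbols mark the replicate number and bars the mean of 3. The 3 day 7 libraries of miR-19a-3p, from 28.9 to 61.9 CPM, lie above all other libraries, and the third diabetic library is the lowest of its group for every member but miR-17-3p.

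Diabetic skin was next compared with day 0 skin. No member passed, and 0% of all tested miRNAs were called, with 8.95% at an unadjusted edgeR p under 0.05, 3 members (miR-17-3p, miR-18a-5p and miR-20a-5p) among them. DESeq2 called 5 miRNAs in this comparison and no member. All 7 log2 fold changes were above 0 under each of the 16 alternatives, with a median of 0.44 against 0.04 for all tested miRNAs.

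The arms of the miR-17 hairpin were both higher without overlap. miR-17-5p was at 476, 434 and 318 CPM in the diabetic libraries, all above the day 0 maximum of 308 CPM (log2 fold change 0.44 ± 0.21, SE, n = 3 against 3, edgeR adjusted p = 0.634). miR-17-3p was at 25.3, 26.9 and 26.5 CPM, above the day 0 maximum of 20.8 CPM (0.49 ± 0.22, edgeR adjusted p = 0.553). The SD of miR-17-3p over the diabetic libraries was 0.813 CPM, or 3.09% of their mean. Counting error alone is 11.4% for the smallest count among them, 77, so agreement this close cannot be read as a small true spread.

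miR-18a-5p had the largest fold change of the 7 members here. It was at 48.8, 40.0 and 26.9 CPM in diabetic skin, above the 18.7 to 23.5 CPM of day 0 (log2 fold change 0.88 ± 0.30, SE, n = 3 against 3, edgeR adjusted p = 0.428). Its interval of 1.16-fold to 2.91-fold lay above 1, as did those of miR-20a-5p (1.03-fold to 2.09-fold) and miR-17-3p (1.003-fold to 1.96-fold). These intervals hold for each miRNA alone and are not adjusted for the 447 rows tested, and none of these members passed. miR-19b-3p was at 384, 415 and 383 CPM and also did not overlap day 0 (0.36 ± 0.20, edgeR adjusted p = 0.679). In all, 4 members were higher without overlap and none was lower, where 13.9% of all tested miRNAs had separate ranges, 8.28% as higher and 5.59% as lower.

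miR-20a-5p and miR-92a-3p split the diabetic libraries. miR-20a-5p was at 1064, 975 and 592 CPM, and miR-92a-3p at 990, 945 and 571 CPM. In both, replicates 1 and 2 were above all day 0 libraries and replicate 3 was inside the day 0 range. Their log2 fold changes were 0.56 and 0.37 (edgeR adjusted p = 0.546 and 0.679). miR-19a-3p was at 19.9, 23.2 and 14.8 CPM, overlapping day 0 (0.34 ± 0.33, edgeR adjusted p = 0.769, interval 0.759-fold to 2.11-fold).

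The third comparison was between diabetic skin and the wound edge of day 7. It shares its diabetic libraries with the second comparison and its day 7 libraries with the first, so it gives no independent view of either. miR-19a-3p was lower in diabetic skin, with all 3 libraries (14.8 to 23.2 CPM) below the lowest day 7 library (28.9 CPM). The log2 fold change was -1.14 ± 0.33 (SE, n = 3 against 3, edgeR adjusted p = 0.0326), with an interval from 0.274-fold to 0.754-fold. It was the 1 member called, where 19.9% of all tested miRNAs were called, 12.1% as lower and 7.83% as higher, and it was also the 1 member with an unadjusted edgeR p under 0.05, where 34.9% of all tested miRNAs had one.

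The call passed in 8 of 16 alternatives. It was lost with total-count scaling (edgeR adjusted p = 0.333), with total counts without miR-21a-5p (0.0562), and without day 0 replicate 2 (0.0593), day 7 replicate 1 (0.0843) or 2 (0.170), or diabetic replicate 1 (0.0661), 2 (0.0759) or 3 (0.115). Its log2 fold change ranged from -1.32 to -0.46. Relative to the median of all tested miRNAs it was -1.11 with TMM and -1.07 with total counts.

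The remaining members did not pass in that comparison. miR-17-3p was higher without overlap (0.42 ± 0.22, edgeR adjusted p = 0.208), so that with miR-19a-3p 2 members had separate ranges. Among all tested miRNAs 38.3% had, 17.4% as higher and 20.8% as lower. The log2 fold changes of miR-17-5p, miR-92a-3p and miR-18a-5p were 0.18, 0.23 and 0.01, and those of miR-20a-5p and miR-19b-3p were -0.01 and -0.24, with edgeR adjusted p-values from 0.418 to 0.990. With total-count scaling, which moved the median of all tested miRNAs from -0.02 to 0.61, miR-17-5p (0.86), miR-17-3p (1.08) and miR-92a-3p (0.91) passed as higher in diabetic skin. Without diabetic replicate 3, miR-92a-3p was the 1 member to pass, as higher (0.48, edgeR adjusted p = 0.0490).

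**Figure D3:**
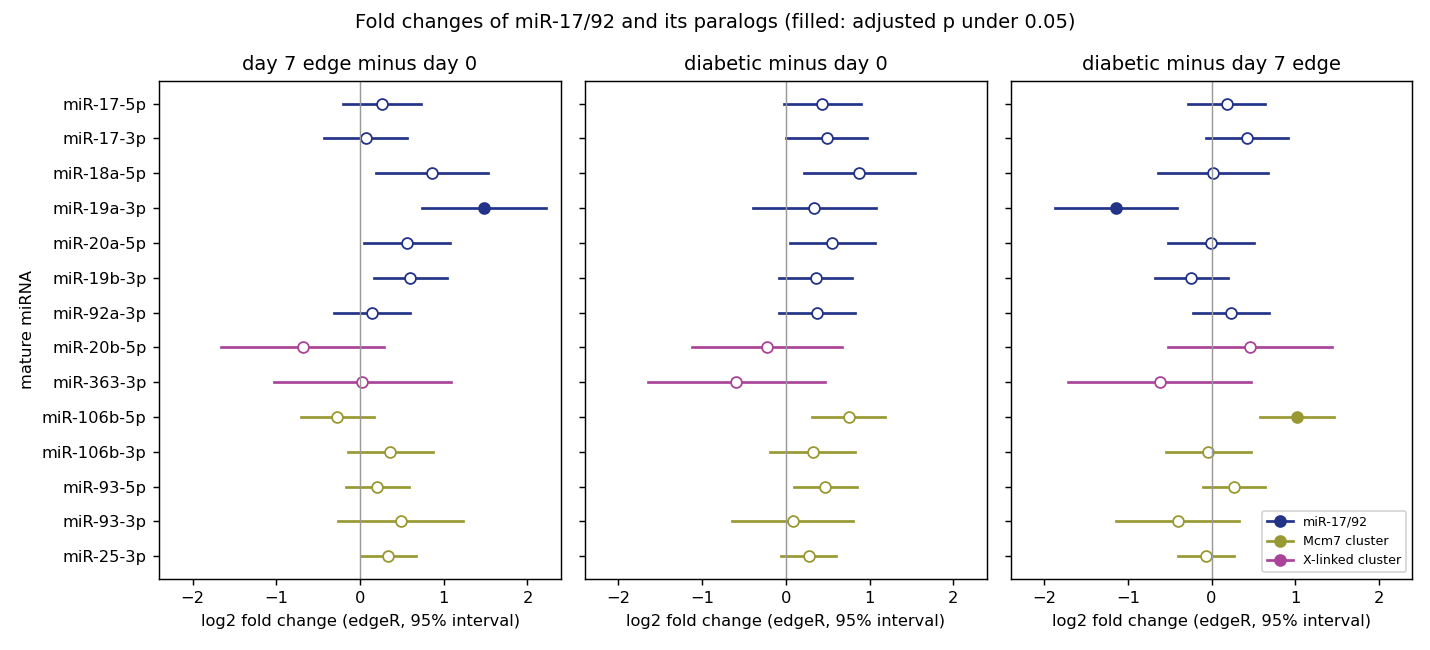
Points are edgeR log2 fold changes (horizontal axes) with 95% intervals for the 7 members and for the tested rows of the paralogous clusters (vertical axis), in the 3 comparisons; filled points have an adjusted p under 0.05. miR-19a-3p is filled on the right of 0 for day 7 against day 0 (1.48) and on the left for diabetic against day 7 (-1.14), and miR-106b-5p is filled on the right in the latter (1.02).

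Ratios between members within a library do not depend on library scaling. These ratios, other than that between the arms of miR-17, were added after the levels had been seen. The groups were compared with exact permutation tests (two-sided), 21 in number. With 3 libraries against 3 these cannot give a p below 0.1, so no ratio can pass a threshold of 0.05. How often ratios of other miRNAs have separate ranges was not computed, so separate ranges of ratios have no background below. For levels, 30.4%, 13.9% and 38.3% of all tested miRNAs had separate ranges in the first, the second and the third comparison. miR-19a-3p counts were 7.09%, 4.57% and 3.71% of miR-17-5p counts in day 0 replicates 1 to 3, 10.9%, 13.4% and 10.4% at day 7, and 4.18%, 5.37% and 4.71% in diabetic skin. All day 7 libraries were above both other groups. On the log2 scale the ratio was 1.22 ± 0.30 (SE) higher at day 7 than at day 0, and 1.28 ± 0.15 lower in diabetic skin than at day 7 (exact permutation p = 0.1 each, 0.21 after Benjamini-Hochberg adjustment).

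The ratio to the closest sequence was also highest at day 7. miR-19a-3p was 3.37% to 7.40% of miR-19b-3p at day 0, 8.02% to 10.5% at day 7 and 3.91% to 5.61% in diabetic skin, without overlap between day 7 and either other group. The ratio was 0.88 ± 0.35 (SE) higher at day 7 than at day 0 on the log2 scale (exact permutation p = 0.1, adjusted 0.21). miR-19b-3p is also made on the X chromosome, and its counts could hold reads of miR-19a-3p with 1 mismatch if the counting allowed them, which is not given in the sources used here.

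In day 0 skin miR-20a-5p had 1.97 to 1.99 times the counts of miR-17-5p in the 3 libraries. Counting error alone is 3.33% for the smallest miR-17-5p count of day 0 and 2.37% for that of miR-20a-5p. Agreement this close therefore cannot be read as a fixed ratio, and the SE given next includes this small day 0 spread. At day 7 the ratio was 2.27 to 2.56, above day 0 without overlap (log2 difference 0.30 ± 0.05, SE, exact permutation p = 0.1, adjusted 0.21). In the diabetic group it was 1.86 to 2.25, overlapping day 0 and below day 7. miR-19b-3p moved in the same way against miR-17-5p, at 0.958 to 1.103 times its counts at day 0, 1.21 to 1.35 at day 7 and 0.806 to 1.20 in diabetic skin. Ratios to miR-17-5p share their denominator and are not independent of each other. miR-17-5p itself took 15.9% ± 0.742 of the member counts at day 0 and 14.2% ± 1.20 at day 7 (SD, n = 3 each).

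miR-18a-5p was 6.41% to 7.65% of miR-17-5p at day 0, 8.79% to 14.5% at day 7 and 8.50% to 10.3% in diabetic skin. Both of the latter were above day 0 without overlap, by 0.58 ± 0.25 and 0.41 ± 0.11 on the log2 scale (exact permutation p = 0.1 each, adjusted 0.21). The first of these fell to 0.34 without day 7 replicate 1, the library at 14.5%. miR-92a-3p, at the 3′ end of the cluster, was between 1.44 and 2.63 times miR-17-5p, with both extremes in the day 7 group, and its groups overlapped in each comparison (exact permutation p = 0.6 to 1.0).

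The arms of the miR-17 hairpin kept a ratio of 14.8 to 19.5 in favour of miR-17-5p at day 0, 14.7 to 24.9 at day 7 and 11.9 to 18.7 in diabetic skin. In the order of the comparisons above, the log2 differences between groups were 0.16 ± 0.27, -0.08 ± 0.23 and -0.24 ± 0.30 (SE, exact permutation p = 0.7, 0.9 and 0.5). All 3 differences were smaller than their standard errors, and the miR-17-3p counts of 35 to 185 per library limit how fine a shift could be seen.

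**Figure D4:**
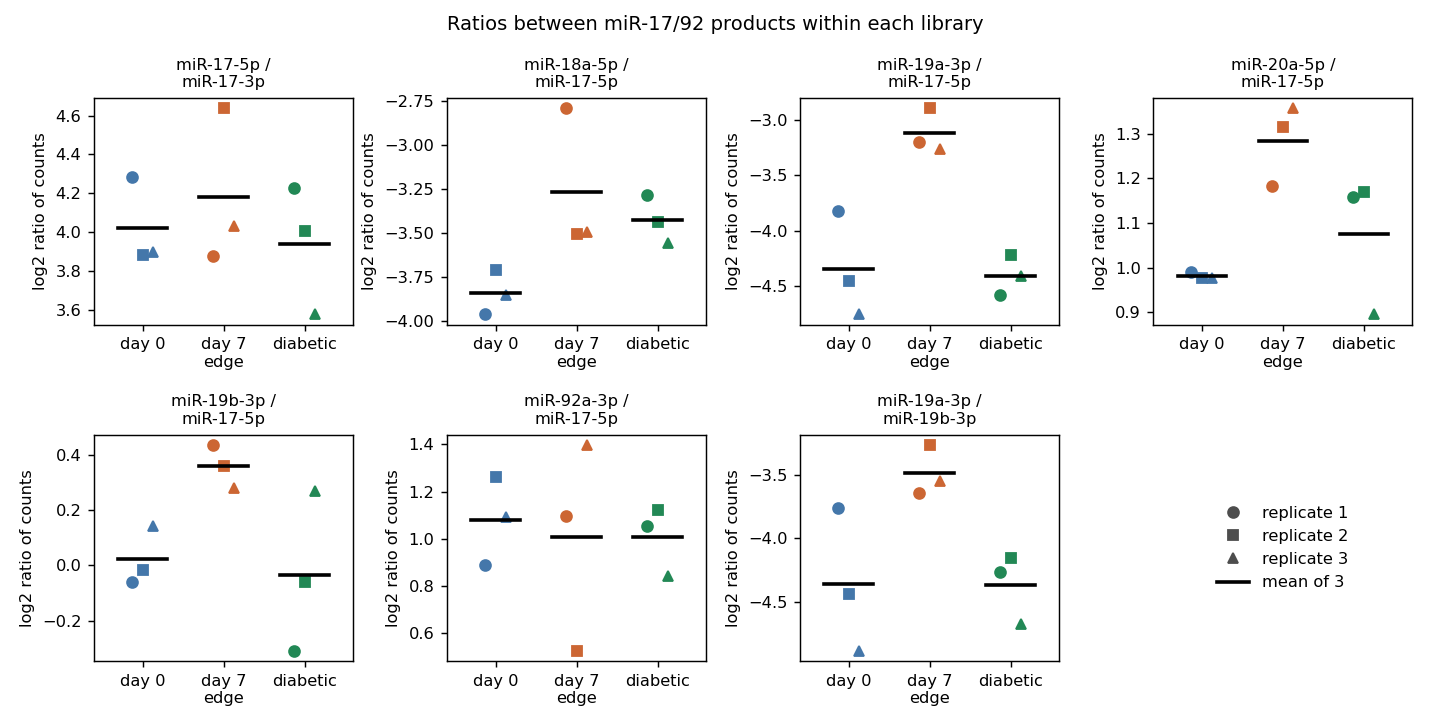
Each panel gives the log2 ratio of the counts of 2 members within a library (vertical axes, 0.5 added to both counts, axes not starting at 0), by group; symbols mark the replicate number and bars the mean of 3. For miR-19a-3p over miR-17-5p all 3 day 7 libraries lie above the other 6, and for miR-17-5p over miR-17-3p the groups overlap.

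Other miRNAs carry the same seeds, and targets see the seed family as a whole. The rows with a RefSeq mature sequence, 936 of 1129 with 77.0% of all counts, were searched for the seeds of the members. In the family of miR-17-5p and miR-20a-5p, the polycistron gave 50.9% ± 1.56 of the summed CPM at day 0, 56.2% ± 4.13 at day 7 and 50.5% ± 2.82 in diabetic skin (SD, n = 3 each). The day 7 libraries, from 53.1% to 60.9%, lay above the other groups, whose highest value was 52.3%. How often such percentages separate for seed families at large was not computed. The rest came almost wholly from the Mcm7 cluster on chromosome 5, from an intron of the DNA replication gene Mcm7. Its family members are shown for comparison with miR-17-5p above, seed in capitals.
miR-93-5p: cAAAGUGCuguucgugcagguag
miR-106b-5p: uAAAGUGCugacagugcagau

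miR-93-5p, which differs from miR-17-5p at 4 positions outside the seed (U10G, A11U, C12U and A13C), had a mean of 847 CPM over the 9 libraries, and miR-106b-5p one of 168 CPM. The X-linked relatives miR-20b-5p and miR-106a-5p were scarce, with highest library values of 6.09 and 5.08 CPM. miR-106a-5p differs from miR-17-5p by U10A alone, so an alignment that allows a mismatch could exchange their reads. The summed family stood at 1768 ± 82.4 CPM at day 0, 2193 ± 403 at day 7 and 2529 ± 536 in diabetic skin (SD, n = 3 each).

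In the miR-92a family the polycistron and its X-linked copy shared the field with miR-25-3p, also of the Mcm7 cluster. miR-92a-3p gave 44.6% ± 2.66 of the family at day 0, 42.6% ± 1.89 at day 7 and 46.1% ± 5.65 in diabetic skin, with overlapping ranges. miR-25-3p had a mean of 810 CPM, miR-32-5p 84.5, miR-92b-3p 6.20 and miR-363-3p 3.86 CPM over the 9 libraries. The miR-19 seed had no other row with a sequence, and miR-18a-5p gave 92.5% to 98.7% of its own family, the rest being miR-18b-5p. The miR-19 family summed to 323 ± 23.2 CPM at day 0, 508 ± 144 at day 7 and 414 ± 21.9 in diabetic skin, of which miR-19a-3p was the minor part.

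**Figure D5:**
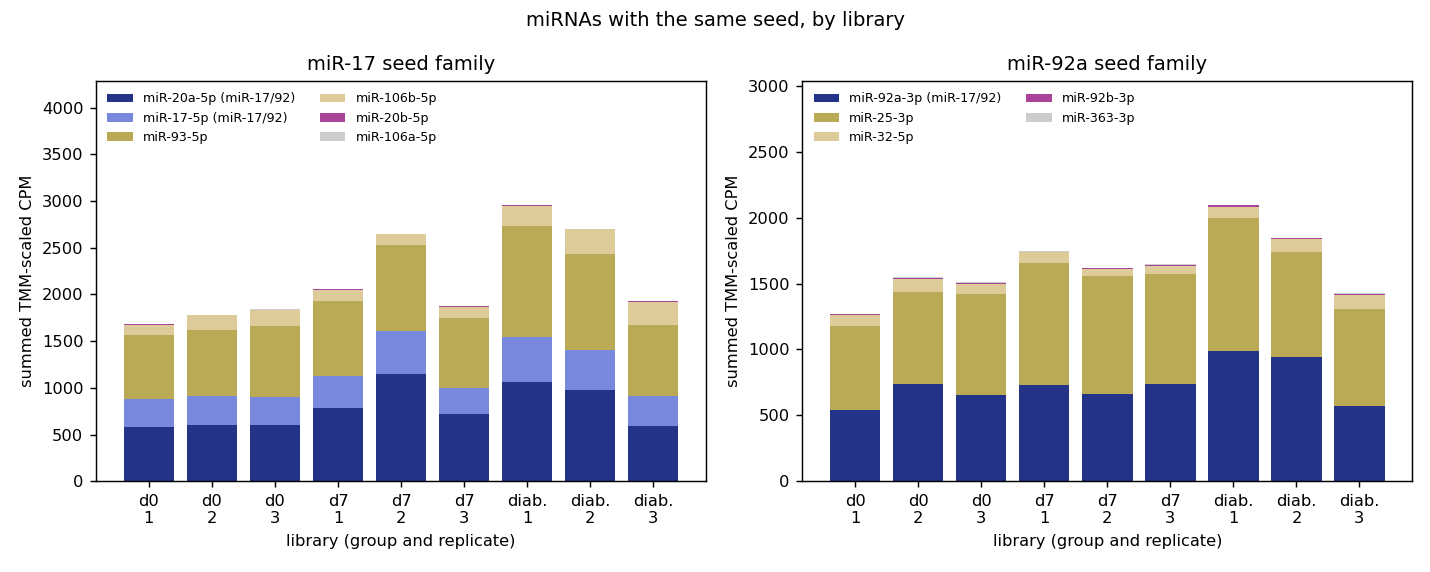
Stacked bars give the TMM-scaled CPM (vertical axes) of the miRNAs that share the seed of miR-17-5p (left) or of miR-92a-3p (right) in each of the 9 libraries (horizontal axes); blue marks members of the polycistron. In both families most of the remainder is a single miRNA of the Mcm7 cluster, miR-93-5p or miR-25-3p.

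Few rows of the paralogous clusters were tested. Of the 6 listed rows of the Mcm7 cluster 5 were tested, and none passed for day 7 or diabetic against day 0. Of all tested miRNAs 12.8% and 0% passed there, and 19.9% for diabetic against day 7, where 1 of the 5 rows passed. This row, miR-106b-5p, was higher in diabetic skin than at day 7, at 241 ± 24.98 against 119 ± 3.41 CPM (log2 fold change 1.02 ± 0.20, SE, n = 3 against 3, edgeR adjusted p = 0.00452). Its partner arm miR-106b-3p was at -0.04 ± 0.23 in the same comparison (edgeR adjusted p = 0.943). miR-93-5p had log2 fold changes of 0.20, 0.47 and 0.27 and miR-25-3p of 0.34, 0.27 and -0.07 in the first, the second and the third comparison. Of the 10 listed rows of the X-linked cluster 6 were in the table and 2 were tested, miR-20b-5p and miR-363-3p, neither of which passed in any comparison. Counts this small cannot be told from the shares over all tested miRNAs.

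Likeness to miR-17-5p was measured by the root mean square difference in log2 CPM over the 9 libraries, after centring each miRNA on its own mean. Among 308 miRNAs with a mean of at least 10 CPM the closest was miR-93-5p (0.112) and the second miR-20a-5p (0.153). Of the other members, miR-19b-3p ranked 14 (0.230), miR-92a-3p 17 (0.240), miR-17-3p 31 (0.284), miR-18a-5p 45 (0.318) and miR-19a-3p 257 (0.633). miR-25-3p ranked 8, miR-106b-3p 43 and miR-106b-5p 159. A row without any change would differ from miR-17-5p by the spread of miR-17-5p itself. miR-17-3p was about as far from miR-17-5p as such a row, and miR-18a-5p, miR-19a-3p, miR-106b-3p and miR-106b-5p were farther. Counting noise adds to the difference, so scarce rows can rank lower for that alone. Outside the miR-17 relatives the closest 5 of 298 were miR-30e-5p (0.174), miR-107-3p (0.198), miR-374b-5p (0.204), miR-374c-3p (0.204) and miR-34a-5p (0.213). The rows miR-374b-5p and miR-374c-3p lie on opposite strands of the same stretch of the X chromosome and had 7710 and 7695 counts, so they cannot be told apart here.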

How the data were processed

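Small RNA libraries (50-base single reads, per the labels' protocols) were read as 1 table. The authors deposited raw counts per miRNA and TPM values, per the file headers. The deposited TPM equal the CPM of the column total in all 6562 values compared and were not used further. The submitters' processing notes name Bowtie, DESeq 3.0.3 and mm9 with no roles. The sources used here give no mismatch, multi-mapping or strand settings. Diabetic columns (T0) were matched to samples (T7) by letter and replicate number.

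Counts were fitted with edgeR 4.0.16 (R 4.3.3): TMM, filterByExpr (minimum count 10, minimum total 15), quasi-likelihood F test, 1 fit of 9 libraries, Benjamini-Hochberg over 447 rows, threshold 0.05. Rows left out held 0.0217% of counts. SE were taken from the F statistic. The procedure was tested on simulated data. DESeq2 1.42.0 was an alternative. Ratios used a pseudocount of 0.5 and SciPy 1.17.1.

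Members, lists and the rule for named miRNAs (members, opposite arms, paralogs, seed relatives, 5 nearest rows) were chosen with earlier results of these data known. Replicates differed beyond counting noise (chi-square 168 to 1470 per degree of freedom). Same-numbered libraries deviated together in all 9 pairs (correlation 0.102 to 0.484), but the labels do not pair them. The deviations of a group sum to 0, so these correlations are not independent. Replicate 3 had the fewest counts in each group, and the part of depth in the correlations was not tested. The replicate block changed no call of a member.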

Additional observations from a re-analysis of the deposited data

How the results depend on the processing

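Members called (1, 0 and 1 in the first, the second and the third comparison) became 0, 0 and 3 with total-count scaling, and the third became 0 with total counts without miR-21a-5p. Leaving out 1 library gave 0 to 3, 0 to 0 and 0 to 1. In the third comparison the 1 call without diabetic replicate 3 was miR-92a-3p (higher), not miR-19a-3p. With the replicate block they stayed at 1, 0 and 1, and miR-19a-3p passed (adjusted p = 0.00621 and 0.0114, edgeR). All miRNAs called (57, 0 and 89) became 133, 1 and 198 with total counts, with a split of 16 higher and 117 lower in the first and 174 higher and 24 lower in the third, against 36 and 21, and 35 and 54. The first became 37 with total counts without miR-21a-5p. The second became 5 with DESeq2, 1 with upper-quartile scaling, 10 with no low-count filter and 1 with the replicate block, and leaving out 1 library gave 19 to 68, 0 to 2 and 49 to 101. Without miR-21a-5p in the totals the members' share was 0.288% at day 0 and 0.388% at day 7. Leaving out 1 library gave 0.206% to 0.214%, 0.174% to 0.201% and 0.269% to 0.377% in the order of the groups.

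Across all alternatives 25 recomputed fold changes of members changed sign, none of them called. In the first comparison miR-17-3p was -0.013 with DESeq2, -0.47 with total counts, -0.12 with the upper quartile and -0.045 with no filter, miR-17-5p was -0.29 with total counts, and miR-92a-3p was -0.38 with total counts and -0.045 with the upper quartile. Leaving out 1 library gave -0.14 to 0.14, -0.036 to 0.36 and -0.035 to 0.18 for these. In the third comparison miR-20a-5p was 0.026 with DESeq2, 0.68 with total counts, 0.11 with the upper quartile and 0.089 with no filter, miR-19b-3p was 0.42 with total counts, and miR-18a-5p was -0.051 without miR-21a-5p in the totals. Leaving out 1 library gave -0.16 to 0.29, -0.39 to 0.035 and -0.18 to 0.29. The miR-17 arm difference ran from -0.069 to 0.31 in the first comparison and from -0.23 to 0.10 in the second. Among the other ratios, whose alternatives were chosen after seeing the data, those that crossed 0 when 1 library was left out were miR-92a-3p over miR-17-5p (-0.27 to 0.16, -0.17 to 0.016 and -0.24 to 0.20 in the 3 comparisons) and, for diabetic against day 0, miR-19a-3p over miR-17-5p (-0.27 to 0.20), miR-19b-3p over miR-17-5p (-0.21 to 0.082) and miR-19a-3p over miR-19b-3p (-0.27 to 0.30). For diabetic against day 7 miR-18a-5p over miR-17-5p ran from -0.28 to 0.074. The cause was not tested. Counts of 33 to 185 limit what can be said of miR-19a-3p.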

Other observations

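The opposite arms of the other hairpins were too scarce for the test. miR-18a-3p had 1 to 15 counts per library, miR-92a-1-5p 1 to 24 and miR-19b-1-5p 0 to 4. miR-20a-3p had 2, 3 and 4 counts in day 0 replicates 1 to 3, 0, 2 and 0 in those of day 7, and 13, 16 and 3 in those of diabetic skin. The 0 counts of day 7 replicates 1 and 3 allow up to 0.629 and 1.18 CPM of the column total. The 3 day 7 libraries thus held 2 counts of this arm, while they held 1487 to 3436 counts each of miR-20a-5p from the same hairpin. miR-92a-1-5p, which unlike miR-92a-3p is made from chromosome 14 alone, had 8, 3 and 1 counts in day 0 skin, 12, 4 and 2 in the day 7 edge and 24, 11 and 2 in diabetic skin, with replicate 1 the highest in each group.

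Low rows of the paralogous clusters were miR-106a-5p with 3 to 15 counts per library, miR-18b-5p with 1 to 11, miR-363-5p with 0 to 6, miR-25-5p with 0 to 7 and miR-20b-3p with 2 counts in diabetic replicate 1 and 0 in all other libraries.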
